A study of Mus musculus with 15 samples.

Results

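Sperm tRNA-derived fragments (tRFs) were compared between 4 sperm libraries from male mice fed an obesity-inducing diet (OID F0) and 3 from males kept on a control diet (CO F0), that is, in the fathers that ate the diets themselves. The labels number the libraries without saying whether each is 1 male. All 47 entries of the table that are named by an anticodon were described, out of 215 entries in all, in 7 of the 15 libraries of the series. The males were of the C57BL/6 strain in the labels (C57BL/6NTac in the study's methods), carried no transgene or other agent in the labels, and received their diet for 7 weeks, the OID being rich in lard. Mature sperm was washed out of the caudal epididymis and freed of somatic cells by lysis, and fragments of 30 to 45 nucleotides were cut from a gel and sequenced. The other 8 libraries came from sons (4 CO F1 and 4 OID F1) that all ate the control diet, and they served to ask whether a diet difference was particular to the fathers and, as an alternative, to estimate the spread over all 4 groups.

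The deposited value of a tRF equals its read number over a size factor for that library, with 0.5 added, and it has no length correction. The study's methods name TPM, a measure per kilobase, for its own comparison of the diets. Depth was 341927, 271812 and 17966 tRF reads in CO F0 replicates 1 to 3, and it was 5363471, 295389, 1803331 and 532651 in OID F0 replicates 1 to 4. CO F0 replicate 3 stood apart as the shallowest library, and 9 of the 47 tRFs had 3 reads or fewer in it. The median depth of OID F0 was 4.30 times that of CO F0 (1167991 against 271812 reads), and the groups overlapped. The table holds no mRNA, so markers of cell types were available only among miRNA entries, which had 71 to 762 reads per F0 library. The 3 germ-cell miRNAs (miR-34b, miR-34c, miR-449a) had 0 reads in CO F0 and 0 to 1 in OID F0, while 2 stromal miRNAs (miR-143, miR-145) summed to 9 to 22 reads in CO F0 and 1 to 24 in OID F0. Epithelial miRNAs (4 entries) summed to 1 to 10 and 4 to 10 reads, blood miRNAs (3 entries) to 0 to 3 and 0 to 2, and both muscle miRNAs were at 0. The libraries were cut from a gel for fragments of tRF size, so miRNA counts depend on that cut as well as on the cells. Low counts of the germ-cell miRNAs therefore cannot check the sperm label. The part of other cells in the results was not tested. In these bulk samples, fewer cells of a type and less RNA per cell cannot be told apart.

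tRFs arise when ribonucleases such as angiogenin cleave a mature tRNA, often in the anticodon loop, and they are abundant in sperm, which gains many of them during passage through the epididymis. Several tRNAs with different anticodons can carry the same amino acid, and such isoacceptors form a family. The first base of the anticodon reads the last base of the codon and is often modified: adenine there becomes inosine, guanine becomes queuosine in a few tRNAs, and uridine (T in the DNA spelling) carries a thiol group in others. Such modifications are known to affect how readily a tRNA is cut.

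The 47 tRFs covered 21 amino acids, of which 12 had 2 or more anticodons. Matched by anticodon, 46 of them had tRNA loci in the RefSeq annotation of GRCm38.p6, from 1 to 56 loci each. Each tRF is therefore a sum over loci, and the table does not state from which end of the tRNA its reads came. The following tRNA genes are shown for tRFs whose values are given below, ValCAC and ArgTCG because they were among those with an unadjusted p under 0.05. They are written 5′ to 3′ with the anticodon in capitals. ValCAC is 1 of 12 loci of its anticodon (chr13:23446142-23446214, minus strand, outside annotated GENCODE M21 genes), and ArgTCG is 1 of 5 (chr7:79466419-79466491, plus strand, inside an exon of Gm10616, a gene model still to be verified). SerAGA is 1 of 7 loci (chr4:10874064-10874145, plus strand) and SerTGA is 1 of 3 (chr13:23518146-23518227, plus strand). Both lie in exons that GENCODE M21 annotates as miRNA, and they were chosen because they are close to identical.
ValCAC: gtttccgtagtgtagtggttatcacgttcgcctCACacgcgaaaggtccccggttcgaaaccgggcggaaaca
ArgTCG: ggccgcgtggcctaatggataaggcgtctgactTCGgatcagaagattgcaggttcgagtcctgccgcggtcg
SerAGA: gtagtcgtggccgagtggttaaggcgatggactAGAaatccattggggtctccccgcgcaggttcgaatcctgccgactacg
SerTGA: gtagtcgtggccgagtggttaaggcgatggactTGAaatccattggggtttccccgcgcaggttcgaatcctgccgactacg
The SerAGA and SerTGA genes differed only by A34T in the 36 bases up to the end of the anticodon, and by A34T and C50T over all 82 bases, counted from 1 at the 5′ end with the SerAGA base first. Fragments that end before the anticodon are therefore the same for these 2 genes, whereas those that cover A34T or C50T are not. The authors added shared reads to the unique reads of a tRNA with a weight from the alignment score. The reads recovered from the deposited values were nevertheless whole numbers, and the study does not say whether weighted reads were rounded.

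Composition by amino acid was led by glutamate and glycine in every library, and the family that stood out between the diets was valine. Of the summed values, Val tRFs held 1.93% ± 0.804 (SD) in the 3 CO F0 libraries and 6.02% ± 1.55 (SD) in the 4 OID F0 libraries, which is 3.13 times as much. Glutamine tRFs held 0.228% ± 0.0821 (SD) in the 3 CO F0 and 0.471% ± 0.102 (SD) in the 4 OID F0 libraries. For these 2 amino acids all 4 OID F0 libraries lay above all 3 CO F0 libraries (9.52% of the 21 amino acids), and none lay below without overlap. After adjustment over the 21 amino acids, 0 passed (limma on log2 shares with Benjamini-Hochberg adjustment, lowest adjusted p = 0.0836), and 3 had an unadjusted p under 0.05 (14.3% of those tested). Val and Gln (9.52%) were higher, and selenocysteine (4.76%) was lower at 3 reads or fewer in every library.

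**Figure D1:**
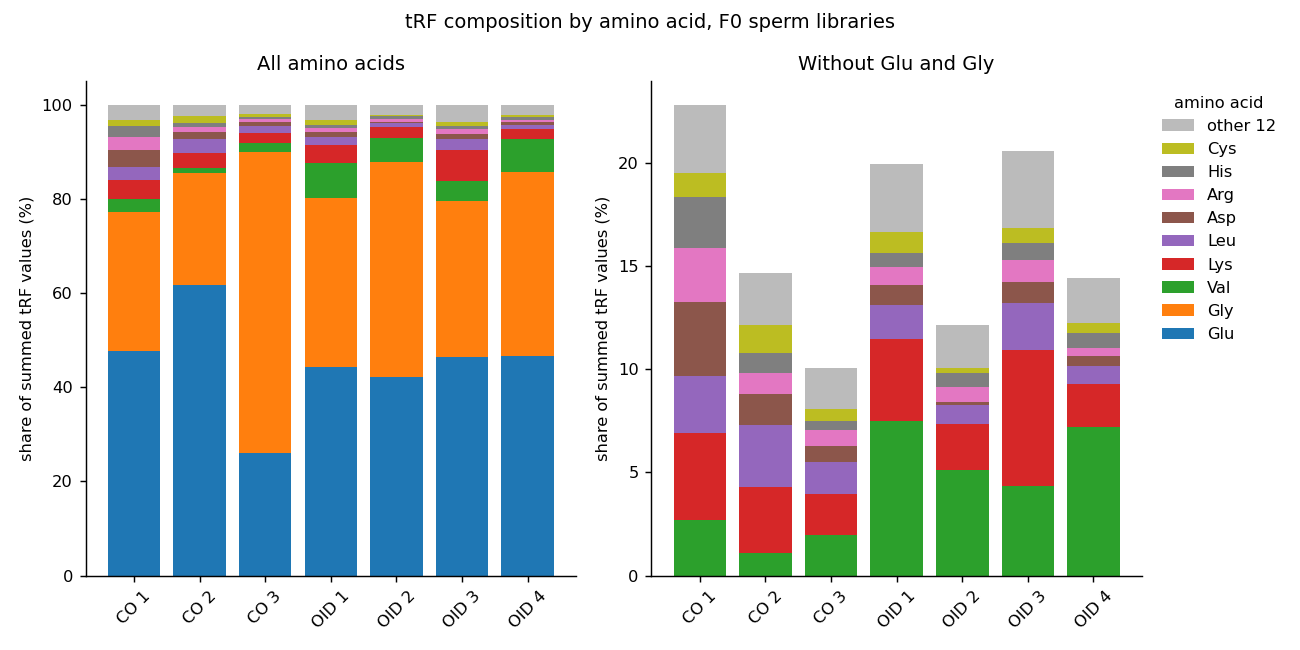
Share of each amino acid in the summed tRF values (%), 1 bar per library, with all amino acids on the left and without Glu and Gly on the right. The Val segment spans 4.32% to 7.49% in the 4 OID F0 libraries and 1.10% to 2.71% in the 3 CO F0 libraries.

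By library, Val was 2.71%, 1.10% and 1.97% in CO F0 replicates 1 to 3, and it was 7.49%, 5.12%, 4.32% and 7.17% in OID F0 replicates 1 to 4. The log2 difference was 1.70 ± 0.46 (SE), with a 95% interval of 0.68 to 2.72 (limma, adjusted p = 0.0836). The two-sided exact permutation test gave p = 0.0571, which is the smallest value that 3 against 4 libraries allow. Counting error was small beside this difference, since the share in the shallowest library rested on 354 reads, with a 95% Wilson interval of 1.78% to 2.18%.
Gln was 0.314%, 0.221% and 0.150% in CO F0, and 0.611%, 0.420%, 0.377% and 0.475% in OID F0. Its log2 difference was 1.09 ± 0.43 (SE; limma, adjusted p = 0.204), and CO F0 replicate 3 held 27 Gln reads in all. With log2 depth as a covariate the log2 difference of Gln was 0.60. Intervals cover counting error only, because without molecular identifiers several reads can stem from the same molecule.

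The dominant amino acids had like means but unlike spreads in the 2 groups. Glu tRFs were 47.8%, 61.6% and 26.0% in CO F0 and between 42.1% and 46.7% in OID F0, with means of 45.1% and 44.9%. Gly tRFs were 29.4%, 23.7% and 64.0% in CO F0 and between 33.0% and 45.7% in OID F0, with means of 39.0% and 38.4%. CO F0 replicate 3 was the library in which Gly exceeded Glu by the widest margin. Summed, Glu and Gly reached 84.2% ± 6.46 (SD) over the 3 CO F0 and 83.2% ± 4.13 (SD) over the 4 OID F0 libraries (two-sided exact permutation test, p = 0.971). The mean share of these 2 together thus differed by less than the mean share of Val.

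Among the other amino acids, none had groups without overlap. Aspartate tRFs had a mean share of 1.96% ± 1.46 (SD) in CO F0 against 0.657% ± 0.429 (SD) in OID F0 (limma, adjusted p = 0.308). Arginine was 1.48% and 0.759%, leucine 2.43% and 1.45%, histidine 1.29% and 0.730%, and cysteine 1.02% and 0.614% in CO F0 and OID F0. All 5 had lower means in OID F0, with limma adjusted p from 0.308 to 0.923. For 4 of the 5 the size of the difference depended on single libraries. The log2 difference of Asp was -1.71, and it was -1.13 without CO F0 replicate 1 and -1.02 without OID F0 replicate 2. That of Arg was -0.85 (-0.33 without CO F0 replicate 1 and -0.55 without OID F0 replicate 4), that of Cys -0.84 (-0.41 without OID F0 replicate 2) and that of His -0.48 (0.16 without CO F0 replicate 1 and -1.09 without CO F0 replicate 3). Lysine was 3.12% and 3.71%, methionine 0.455% and 0.583%, alanine 0.635% and 0.509%, and proline 0.525% and 0.424%. Of the scarcer families, asparagine was at 0.286% and 0.294%, serine at 0.164% and 0.235%, and threonine at 0.119% and 0.112%. Isoleucine (0.0888% and 0.0917%), tryptophan (0.0496% and 0.0551%), tyrosine (0.0276% and 0.0320%) and phenylalanine (0.0172% and 0.0114%) were the scarcest with a measurable level. Selenocysteine is given no fold change.

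Across single tRFs, no call was made after adjustment: 0 of the 47 (0%) had an adjusted p under 0.05 by limma with Benjamini-Hochberg adjustment (lowest 0.0733), and 0 by limma-voom on the recovered reads. Without adjustment, 10 tRFs had a p under 0.05 (21.3%), of which 6 were higher in OID F0 (12.8%) and 4 lower (8.51%), against 9 with limma-voom. That split depended on scaling, since it was 7 higher and 2 lower under median of ratios scaling and 4 higher and 5 lower when libraries were scaled without GlyGCC and GluCTC. These scalings moved the median of all tRFs by 0.10 and -0.35 on the log2 scale, and all 10 tRFs kept their direction under both. Values of CO F0 and OID F0 did not overlap for 5 tRFs that were higher (10.6%) and 5 that were lower (10.6%) in OID F0. The adjusted count was 6 when all 4 groups shared 1 estimate of the spread and 5 among the 28 tRFs with at least 10 reads in every F0 library. It was 1 without CO F0 replicate 1 and 2 without OID F0 replicate 3. The p-values measure the spread between these samples, which may be technical.

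**Figure D2:**
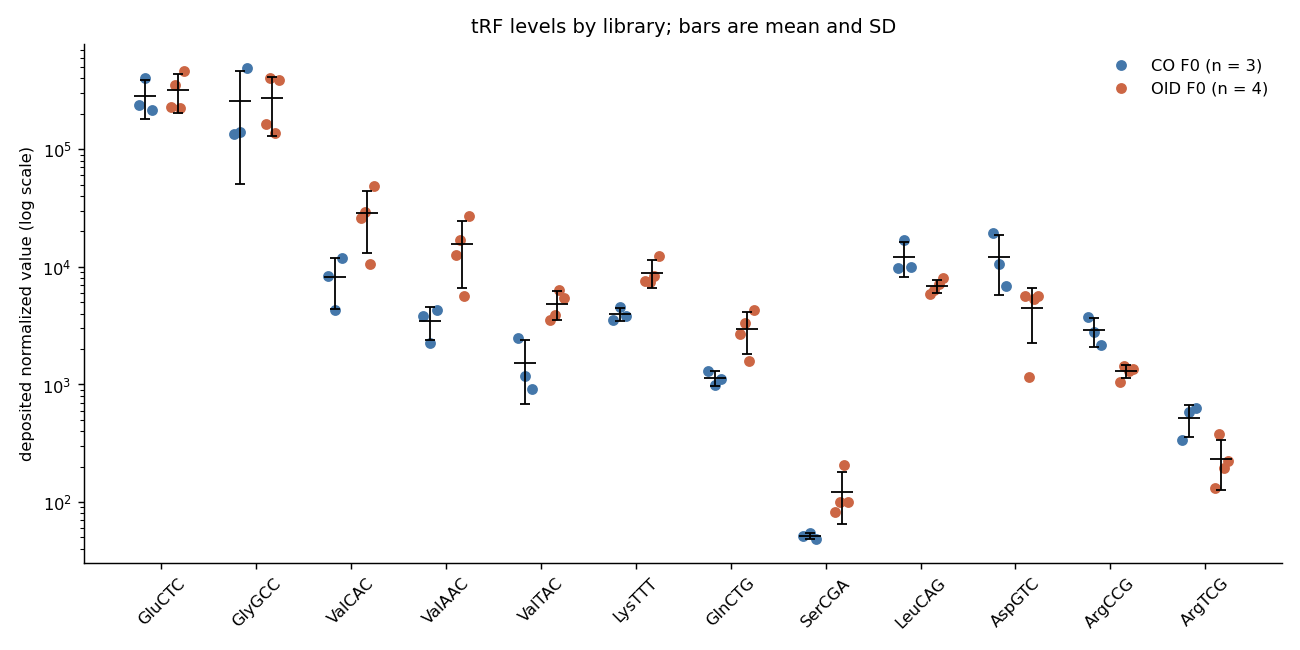
Deposited normalized value (log scale) of 12 tRFs, with each library as a point and mean ± SD as black bars. ValAAC, ValTAC, LysTTT, GlnCTG and SerCGA have no overlap between groups with OID F0 higher, and LeuCAG, AspGTC and ArgCCG with OID F0 lower.

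Valine supplied 3 of the 6 tRFs that were higher. ValAAC had values of 3811, 2258 and 4337 in CO F0 and 12605, 16825, 5706 and 27159 in OID F0. The groups did not overlap, and the log2 difference was 2.01 ± 0.54 (SE; limma, adjusted p = 0.0733). ValTAC had values of 2493, 1186 and 916 in CO F0 and 3552, 3919, 6397 and 5488 in OID F0, again without overlap, and a log2 difference of 1.75 ± 0.42 (SE; limma, adjusted p = 0.0733). It passed without CO F0 replicate 1 (adjusted p = 0.0374). ValCAC, the most abundant of the 3, had values of 8291, 4291 and 11804 in CO F0 and 26193, 29485, 10585 and 48240.3 in OID F0. OID F0 replicate 3 lay inside the CO F0 range for this tRF and was the lowest of its group for ValAAC, but it was the highest for ValTAC. The log2 difference of ValCAC was 1.74 ± 0.57 (SE; limma, adjusted p = 0.109).

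LysTTT had values of 3563, 4533 and 3807 in CO F0 and 7603, 7422, 8297 and 12471 in OID F0. The groups did not overlap, and the CO F0 libraries lay close together (log2 difference 1.15 ± 0.29 SE; limma, adjusted p = 0.0733). Only 2 RefSeq loci carry this anticodon, both on chromosome 13 (21907940 to 21908012 and 21971788 to 21971860 in GRCm38.p6) and both outside GENCODE M21 genes. GlnCTG had values of 1303, 985 and 1109 in CO F0 and 2688, 3331, 1572 and 4292 in OID F0 (log2 difference 1.31 ± 0.38 SE; limma, adjusted p = 0.0862). Without OID F0 replicate 3, its lowest OID library, GlnCTG and ValAAC both passed (adjusted p = 0.0273). SerCGA had values of 50.9, 54.7 and 48.7 in CO F0 and 83.1, 100.2, 207 and 100.01 in OID F0 (log2 difference 1.14 ± 0.36 SE; limma, adjusted p = 0.106). The value in CO F0 replicate 3 rested on 1 read and those in the other CO F0 libraries on 32 and 21.

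The 4 tRFs that were lower came from arginine, leucine and aspartate. ArgCCG had values of 3757, 2767 and 2169 in CO F0 and 1055, 1436, 1312 and 1366 in OID F0, without overlap (log2 difference -1.14 ± 0.29 SE; limma, adjusted p = 0.0733). ArgTCG had values of 335, 582 and 627 in CO F0 and 131, 379, 193 and 223 in OID F0, where replicate 2 reached into the CO F0 range (log2 difference -1.20 ± 0.42 SE; limma, adjusted p = 0.133). With log2 depth as a covariate the difference of ArgTCG was -0.48. The other 3 Arg tRFs had log2 differences of -0.44 (ArgACG), -0.52 (ArgCCT) and 0.47 (ArgTCT). LeuCAG, the main leucine tRF, had values of 9812, 16874 and 9877 in CO F0 and 5925, 6322, 7196 and 7983 in OID F0 (log2 difference -0.79 ± 0.30 SE; limma, adjusted p = 0.162). The OID F0 libraries were close together and all below CO F0. AspGTC had values of 19375, 10484 and 6842 in CO F0 and 5641, 1160.5, 5303 and 5694 in OID F0 (log2 difference -1.57 ± 0.65 SE; limma, adjusted p = 0.206). Without OID F0 replicate 2, which is far below the others, its log2 difference was -1.01.

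The 2 dominant tRFs varied more within than between groups. GluCTC had values of 235924, 404780.5 and 214586 in CO F0 and 230020.1, 353231, 225725 and 467046 in OID F0 (log2 difference 0.15, 95% interval -0.74 to 1.04). GlyGCC had values of 134683, 140313 and 495177 in CO F0 and 163033, 402717, 137096 and 386389 in OID F0 (log2 difference 0.20, 95% interval -1.22 to 1.63), and with log2 depth as a covariate the difference of GlyGCC was 1.55. Both signs turned when libraries were scaled without these 2 tRFs (-0.20 and -0.14). ProAGG and ProCGG were the opposite case, with groups that did not overlap at small differences. ProAGG lay between 1253 and 1276 in CO F0 and between 1070.4 and 1196 in OID F0 (log2 difference -0.14), and ProCGG between 675 and 737 and between 557 and 619 (log2 difference -0.21). The spread of ProAGG over CO F0 was 12.5 (SD, n = 3). The lowest CO F0 value of each came from replicate 3 and rested on 26 ProAGG and 14 ProCGG reads. There 1 read was worth 48.2, so that neither the lack of overlap nor this small spread is secure.

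**Figure D3:**
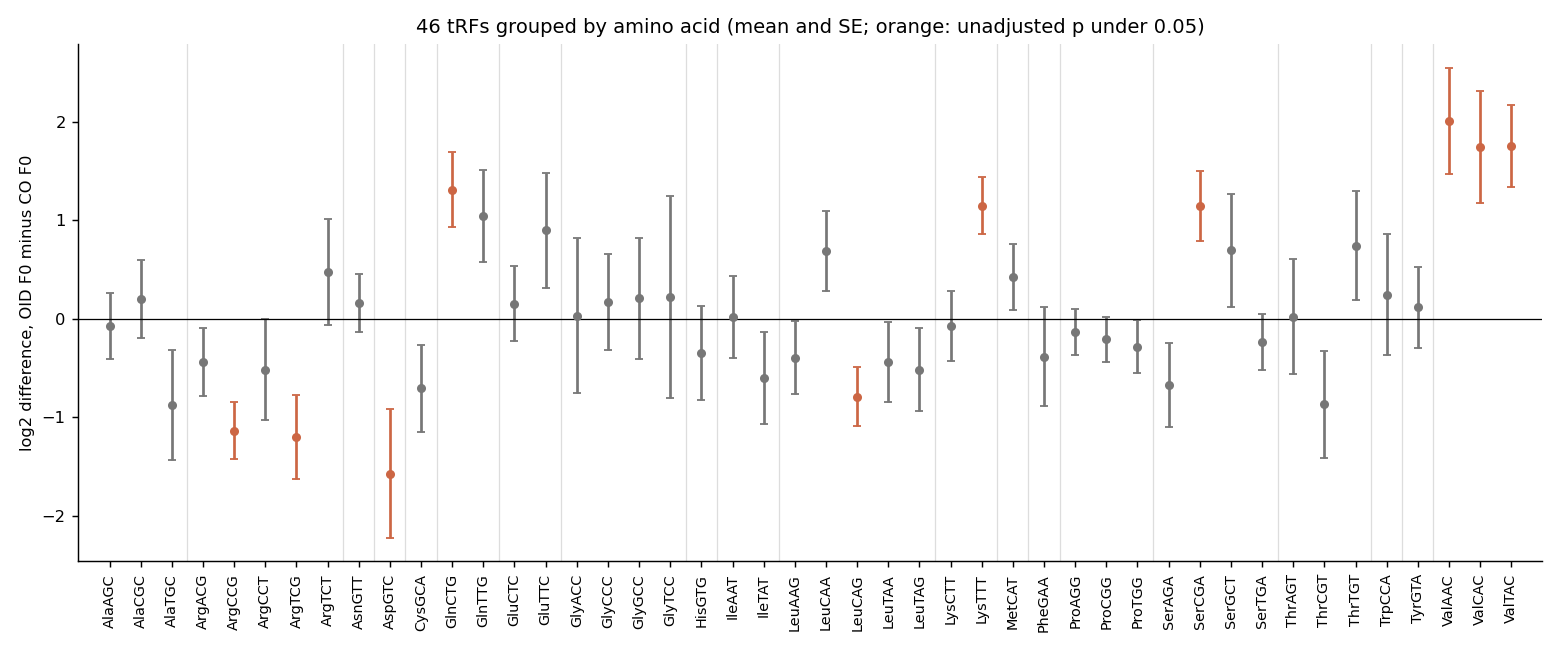
Log2 difference (OID F0 minus CO F0) of log2(value + 1) for 46 tRFs in amino acid order, with SE as bars and orange for an unadjusted p under 0.05. The 3 Val tRFs sit together between 1.74 and 2.01, and AspGTC is lowest at -1.57.

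Families differed in whether all their members had differences of the same sign. All 3 Val, both Gln, both Glu and all 4 Gly tRFs had positive log2 differences, and all 3 Pro tRFs had negative ones. GlnTTG (1.04, limma adjusted p = 0.247) lay beside GlnCTG, and GluTTC was 0.90 (adjusted p = 0.437) beside 0.15 for GluCTC. The medians were 1.75 for Val, 1.18 for Gln, 0.52 for Glu, 0.19 for Gly and -0.21 for Pro, against 0.02 for all 47. The medians of Leu (-0.44) and Arg (-0.52) came from families with 4 of 5 members below 0. The Ser, Thr, Ile, Lys and Ala families held members of both signs. The signs for Glu, Gly and Ile are of values within their error, and they depend on scaling.

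Within a family, each tRF was set against the sum of the others of its amino acid, which removes library scaling and the level of the family. Of the 34 ratios, 0 passed (limma with Benjamini-Hochberg adjustment, lowest adjusted p = 0.353) and 4 had an unadjusted p under 0.05 (11.8%), 2 higher (5.88%) and 2 lower (5.88%) in OID F0. The valine family had a like mean make-up in both groups although its share differed. ValAAC held 26.9% ± 2.01 (SD) and 30.5% ± 3.98 (SD) of Val in CO F0 and OID F0. ValCAC was 60.5% and 56.7%, and ValTAC was 12.6% and 12.8%. The limma 95% interval of the difference in log2 ratio was -0.41 to 0.91 for ValAAC, -1.05 to 0.58 for ValCAC and -1.64 to 1.49 for ValTAC. Shifts within these intervals are therefore not excluded. OID F0 replicate 3 departed from its group, with ValTAC at 28.2% of Val against 6.79% to 8.39% in the other 3. In CO F0, ValTAC was 17.1%, 15.3% and 5.37% of Val. The like means of ValTAC thus depended on OID F0 replicate 3, and the medians were 15.3% in CO F0 and 8.10% in OID F0.

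**Figure D4:**
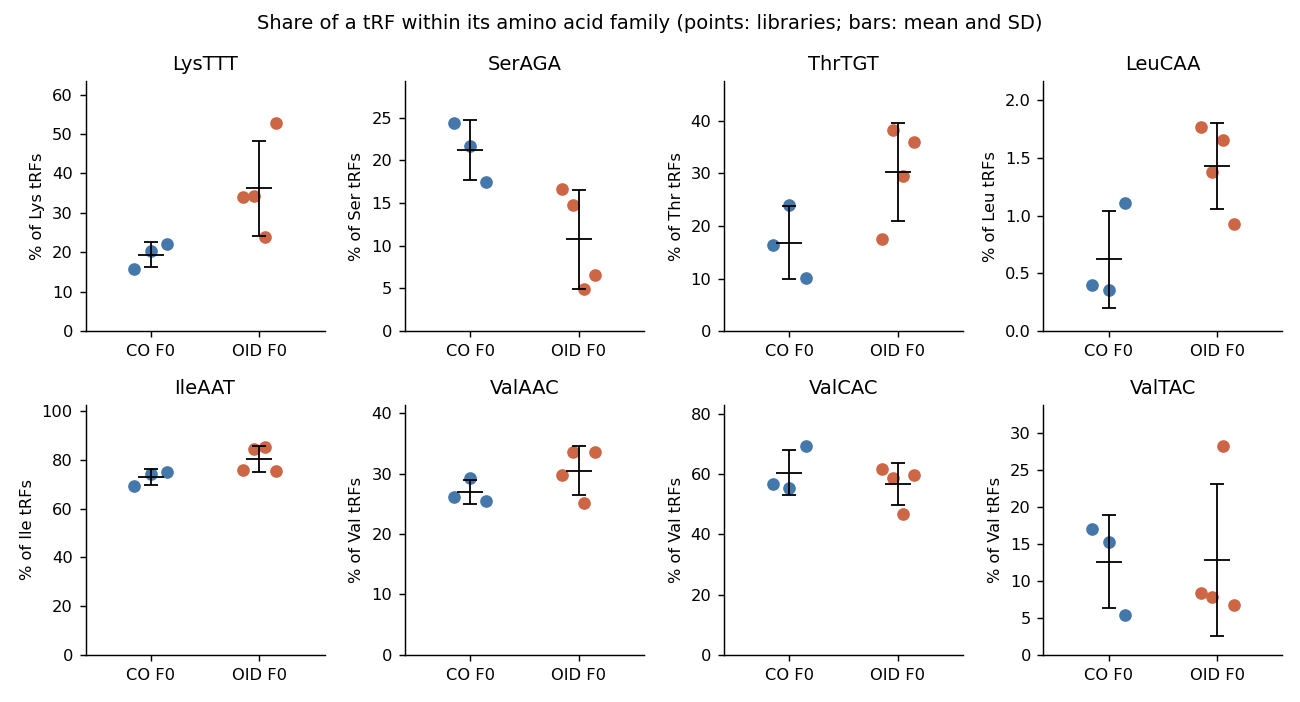
Percent of a family held by 1 tRF, with libraries as points and mean ± SD as black bars. LysTTT lies at 15.8% to 22.0% of Lys in CO F0 and 24.0% to 52.9% in OID F0, whereas the 3 Val tRFs overlap between groups.

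Lysine showed the opposite pattern, with an unlike balance of isoacceptors at a family share that overlapped between the diets. LysTTT was 15.8%, 20.3% and 22.0% of Lys in CO F0 and 34.0%, 34.3%, 24.0% and 52.9% in OID F0. All 4 OID F0 libraries were above all CO F0 libraries, with means of 19.4% and 36.3% (log2 ratio of LysCTT to LysTTT -1.22 ± 0.44 SE; limma, adjusted p = 0.353). The 22.0% in CO F0 replicate 3 rested on 79 LysTTT and 280 LysCTT reads. Its distance from the 24.0% in OID F0 replicate 3 is therefore not secure. LysCTT itself had mean values of 16763 and 16611, with a log2 difference of -0.07 (95% interval -0.89 to 0.74).
In serine, SerAGA was 24.4%, 21.7% and 17.5% of the family in CO F0 and 16.6%, 14.8%, 4.97% and 6.56% in OID F0. The groups again did not overlap (log2 ratio -1.32 ± 0.51 SE, limma adjusted p = 0.353). The 17.5% in CO F0 replicate 3 rested on 7 SerAGA reads, beside 30 of SerGCT, 2 of SerTGA and 1 of SerCGA. Its distance from the 16.6% in OID F0 replicate 1 is therefore not secure. SerGCT, the main serine tRF, was 64.5% and 75.3% of Ser, and SerTGA was 9.09% and 5.76%. The SerTGA gene printed above is close to identical with the SerAGA gene printed there, and other loci of both were not compared.

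The other 2 ratios, like that of SerAGA, rested on few reads in CO F0 replicate 3. LeuCAA was 0.404%, 0.356% and 1.11% of Leu in CO F0 and 1.77%, 1.38%, 1.65% and 0.929% in OID F0 (log2 ratio 1.37 ± 0.46 SE; limma, adjusted p = 0.353). CO F0 replicate 3, the high one of its group, held 3 LeuCAA reads, and without it the ratio was 1.88 and passed (adjusted p = 0.0389). ThrTGT was 16.4%, 24.1% and 10.1% of Thr in CO F0 and 17.5%, 38.3%, 29.5% and 36.0% in OID F0 (log2 ratio 1.12 ± 0.49 SE; limma, adjusted p = 0.417), with 1 read in CO F0 replicate 3. Without that library the log2 ratio was 0.75. IleAAT had no overlap between groups (limma, adjusted p = 0.456). It was 69.0%, 74.3% and 75.0% of Ile in CO F0 and 75.7%, 84.4%, 85.0% and 75.3% in OID F0. The 75.0% in CO F0 replicate 3 rested on 9 IleAAT and 3 IleTAT reads, so its distance from 75.3% is not secure. With IleAAT counted, 1 ratio (2.94%) was higher and 2 (5.88%) were lower without overlap. In glycine, GlyTCC split the OID F0 group, at 8.41% and 9.03% of Gly in replicates 1 and 3 and 0.206% and 0.785% in replicates 2 and 4, while CO F0 lay between 1.30% and 3.31%.

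The tRFs were then grouped by the first base of the anticodon, leaving out GlyGCC and GluCTC, which otherwise set the totals. Of the remaining 45 tRFs, those with T first held 21.9% ± 4.52 (SD) of the summed values in the 3 CO F0 and 32.0% ± 1.69 (SD) in the 4 OID F0 libraries. Those with G first held 18.7% ± 5.96 and 9.02% ± 2.39, and those with A first 7.75% ± 0.644 and 11.0% ± 1.50. By library, the T class was 22.7%, 26.1% and 17.1% in CO F0 and 30.3%, 34.0%, 32.9% and 31.0% in OID F0. The G class was 24.6%, 18.7% and 12.6% in CO F0 and 10.9%, 5.72%, 10.7% and 8.83% in OID F0. In these 3 classes the groups did not overlap (two-sided exact permutation test, p = 0.0571 for each and adjusted p = 0.0762 over the 4 classes). The C class was 51.6% and 47.9% (exact p = 0.743). Without CO F0 replicate 3 the CO F0 means were 24.4% for T, 21.7% for G and 7.93% for A.

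**Figure D5:**
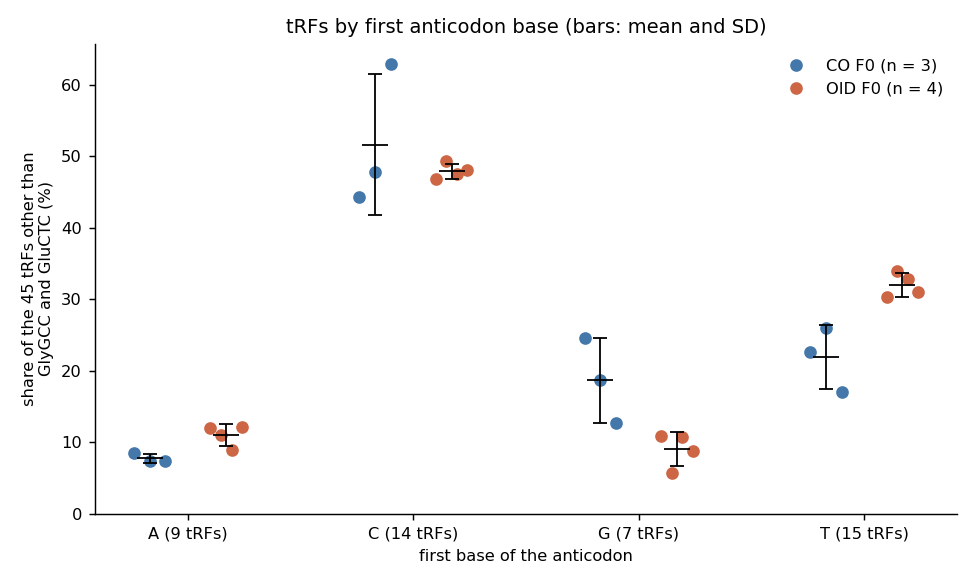
Share of the 45 tRFs other than GlyGCC and GluCTC (%) by the first base of the anticodon, with libraries as points and mean ± SD as black bars. OID F0 lies above CO F0 for A and T and below it for G without overlap, and the C class overlaps.

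Few tRFs carried each class. In the T class, GluTTC had mean shares of 12.4% in CO F0 and 17.9% in OID F0, and GlyTCC of 3.14% and 5.29%. LysTTT had 2.48% and 4.33%, and ValTAC 0.941% and 2.43%, both without overlap. GluTTC and GlyTCC overlapped between groups. In OID F0 replicates 1 to 4, GluTTC was 11.6%, 26.7%, 11.3% and 21.8%, and GlyTCC 9.89%, 0.409%, 9.62% and 1.25%. In CO F0, GluTTC was 12.8%, 17.8% and 6.46%, and GlyTCC 3.12%, 1.67% and 4.64%. In the G class, AspGTC was at 7.52% and 2.28% without overlap. HisGTG, at 4.90% and 2.71%, and CysGCA, at 4.28% and 2.17%, overlapped between groups. In the A class, ValAAC was at 2.16% and 7.04%, and the other 8 tRFs all had lower means in OID F0. As levels of single tRFs, 2 of the 15 T-first tRFs were higher and 1 lower at an unadjusted p under 0.05. The counts were 1 higher of 9 with A, 3 higher and 2 lower of 15 with C, and 1 lower of 8 with G. Over all 47 tRFs, 12.8% were higher and 8.51% lower, and the T-first counts lay near these shares. The median log2 differences were -0.24 (T), -0.07 (A), 0.17 (C) and -0.12 (G), against 0.02 for all 47. As a share of all 47 tRFs, the T class was 5.33% and 8.69% (two-sided exact permutation test, p = 0.0571, adjusted p = 0.229 over the 4 classes), and the other classes overlapped.

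Modification classes gave small lists. The 3 tRNAs with a thiolated first uridine (LysTTT, GlnTTG, GluTTC) all had positive log2 differences, with a median of 1.04 against 0.02 for all 47. Of these 3, 1 was higher at an unadjusted p under 0.05, whereas 12.8% of all 47 tRFs were. Summed, they were 4.74%, 4.71% and 1.63% of all tRFs in CO F0 and 5.02%, 6.97%, 5.16% and 6.51% in OID F0, without overlap (two-sided exact permutation test, p = 0.0571, adjusted p = 0.229 over 4 lists). Most of this sum was GluTTC, which overlapped between groups. By mean share over the F0 libraries, GluTTC held 3.95%, LysTTT 0.933% and GlnTTG 0.0807%. Of the 4 queuosine tRNAs (AspGTC, AsnGTT, HisGTG, TyrGTA), 1 was lower at an unadjusted p under 0.05, whereas 8.51% of all 47 tRFs were. The summed share of the 4 was 3.57% ± 2.54 (SD) in CO F0 and 1.71% ± 0.549 (SD) in OID F0, with overlap. The 3 substrates of the cytosine methyltransferase Dnmt2 had differences of both signs, at 2.01 for ValAAC, -1.57 for AspGTC and 0.20 for GlyGCC. Of the 5 tRFs that the study singled out on these same libraries (ValTAC, SerCGA, ArgCCG, ArgTCG, SeCTCA), 2 were higher and 2 lower at an unadjusted p under 0.05, which is not independent evidence, and SeCTCA had 3 reads or fewer in every library.

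Evenness over tRFs did not differ detectably. The effective number of tRFs (the exponential of the Shannon entropy) was 7.24, 4.92 and 4.26 in CO F0 and 7.01, 5.12, 7.18 and 5.38 in OID F0 (two-sided exact permutation test, p = 0.457). After thinning all libraries to 17966 reads the exact p was the same, and the inverse Simpson index gave an exact p of 0.171. By mean share over the F0 libraries, 10 tRFs exceeded 1% and held 92.5% of the summed values, while 21 lay under 0.1%. In single libraries 7 to 12 tRFs exceeded 1%. The number of RefSeq loci and the mean share over F0 had a Spearman's rho of 0.523 across 46 tRFs, a description of tRFs measured in the same libraries.

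Whether these differences were particular to the exposed fathers was tested as an interaction of diet and generation over all 15 libraries. In limma with Benjamini-Hochberg adjustment, 0 tRFs (lowest adjusted p = 0.657), 0 amino acid shares (0.305) and 0 within-family ratios (0.221) passed, and 2, 1 and 2 had an unadjusted p under 0.05. For Val the diet difference in log2 share was 1.70 in F0 and 0.33 in F1 (difference 1.37 ± 0.50 SE, limma adjusted p = 0.305), and for LysTTT the log2 difference was 1.15 in F0 and -0.04 in F1 (adjusted p = 0.657). The ratio of SerAGA to other Ser tRFs was -1.32 in F0 and 0.72 in F1 (adjusted p = 0.221). No difference was therefore called particular to the fathers.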

How the data were processed

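Small RNA-seq of sperm was analysed in 3 CO F0 and 4 OID F0 libraries, with groups and replicate numbers taken from the sample labels. The authors trimmed and aligned reads to mm10 (the submitters' processing notes name Bowtie2 2.3.4.1 and DESeq2), assigned tRNA reads by sequence comparison and normalized them. The deposited table gives each tRF a normalized signal, which equals the reads over a size factor of the library with 0.5 added. The reads were recovered from the steps between values, and every value came out whole within 0.001 reads. Left out were 4 mature tRNA entries, and 164 miRNAs served only to count marker reads. limma 3.58.1 (R 4.3.3) was run on log2(value + 1), on log2 shares of amino acids and on log2 ratios within families, with Benjamini-Hochberg adjustment over each table and a threshold of 0.05, after tests on simulated data. Fold changes on this scale understate those of low tRFs. Single values had two-sided exact permutation tests (scipy 1.17.1, Python 3.11.15). Intervals are 95% Wilson or limma intervals, and the floor is 3 reads.

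The members, lists (amino acid families, first anticodon base, Dnmt2, queuosine and thiolated tRNAs, the study's tRFs) and tests were chosen with earlier results of these data known. Library values are printed for tRFs with an unadjusted p under 0.05, those without overlap and a log2 difference of at least 0.5 in size, and GlyGCC and GluCTC, and for ratios with an unadjusted p under 0.05. IleAAT, GlyTCC, ProAGG and ProCGG were added after their values were seen. Alternatives were pseudocounts of 0.1 and 10, filters on value and reads, other scalings, all 4 groups, an intensity trend, depth as a covariate, the replicate number as a block, limma-voom and each library left out. Loci and sequences are from NCBI RefSeq (GRCm38.p6) and GENCODE M21.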

Additional observations from a re-analysis of the deposited data

Results flagged for a closer look

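In the 4 OID F0 libraries, the gap of the most extreme library to its nearest neighbour was set against the range of the group for 92 tRFs, amino acid shares and within-family ratios, against Dixon's 95% critical value for 4 samples. Such a gap appears in about 1 of 20 groups by chance, that is in 4.6 of 92, and 4 were found. AspGTC was low in OID F0 replicate 2 (gap 0.955 of the range), at 1160.5 against 5303 to 5694. SerAGA was high in replicate 1 (0.909), at 265 against 111 to 120.2. ProCGG was low in replicate 3 (0.894), at 557 against 612 to 619. The ratio of ValTAC to the other Val tRFs was high in replicate 3 (0.864), where ValTAC held 28.2% of Val. No diet difference between generations passed the interaction test.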

How the results depend on the processing

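The count of tRFs with an adjusted p under 0.05 in limma (0) was 6 with all 4 groups in 1 fit (ArgCCG, GlnCTG, LysTTT, ValAAC, ValCAC, ValTAC) and 5 among tRFs with at least 10 reads in every F0 library (the same without ValCAC), and it was 0 to 2 when a library was left out. For amino acids it was 3 with all 4 groups (Val, Gln, SeC), 1 with an intensity trend and 1 as a centred log ratio (both Val), 2 with log2 depth as a covariate (Asp, -3.41, and Cys, -2.06), and 0 to 1 when a library was left out, the 1 being SeC without OID F0 replicate 2. For within-family ratios it was 0 to 1 when a library was left out (LeuCAA without CO F0 replicate 3). Why these counts moved was not tested, beyond the smaller number of tRFs tested under the filter. In the other alternatives run the 3 counts stayed at 0, and the count of tRFs at an unadjusted p under 0.05 (10) lay between 7 and 12. The unadjusted count of amino acids (3) was 7 with depth as a covariate, 6 for shares without GlyGCC and GluCTC, and 2 to 4 otherwise. That of ratios (4) was 1 under the filter on reads and without CO F0 replicate 1, 2 with depth as a covariate, as percent of the family and without OID F0 replicate 3 or 4, and 3 to 5 otherwise.

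The 10 tRFs with an unadjusted p under 0.05, the 4 ratios, Val, Gln, Asp, Arg, Leu, Cys, Met, Phe and Pro kept their direction in every alternative that gave a value. With each library left out in turn, the log2 differences ranged from 1.67 to 2.42 for ValAAC, 1.45 to 2.17 for ValTAC, 1.10 to 1.58 for GlnCTG and 1.06 to 1.88 for LeuCAA. The difference in the effective number of tRFs (0.698) ranged from 0.0921 without CO F0 replicate 3 to 1.58 without CO F0 replicate 1. Signs turned for values within their error. The ranges were then -0.053 to 0.44 for GluCTC, -0.12 to 0.82 for GlyGCC, and for shares -0.67 to 0.19 (Ala), -0.053 to 0.12 (Asn), -0.28 to 0.35 (Glu), -0.19 to 0.53 (Gly), -1.09 to 0.16 (His), -0.67 to 0.11 (Ile), -0.18 to 0.39 (Lys), -0.036 to 0.75 (Ser), -0.72 to 0.18 (Thr), -0.38 to 0.57 (Trp) and -0.40 to 0.33 (Tyr). Without GlyGCC and GluCTC in the scaling, GluCTC was -0.20, GlyGCC -0.14 and the shares of Asn -0.19, Lys -0.064 and Trp -0.11. With limma-voom GluCTC was -0.10. With depth as a covariate, Asn was -0.20, Glu -0.36, Lys -0.68, Ser -0.080 and Trp -0.79, and with no change of sign it moved ArgTCG from -1.20 to -0.48, GlyGCC from 0.20 to 1.55, GluCTC from 0.15 to 0.30, AspGTC from -1.57 to -2.67, and the shares of Gly from 0.10 to 0.74 and Gln from 1.09 to 0.60. Under it the shares of Arg (-1.57), Leu (-1.60), His (-1.31), Pro (-0.86), Thr (-1.64), Ile (-1.40), Ala (-1.10) and Tyr (-0.89) were farther below 0, and those of Met (0.10) and Phe (-0.049) nearer to it. As a centred log ratio, Ala was 0.044, Ile 0.0013 and Tyr 0.24, and as summed values Tyr was 0.11.

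The replicate numbers 1 to 3 recur in both groups, and deviations of same-numbered libraries had correlations of 0.233, 0.0899 and -0.145. The labels do not say what the numbers mark. So few correlations cannot decide whether such libraries share a batch or litter. With a replicate block, which leaves OID F0 replicate 4 without weight, 0 tRFs, 0 amino acids and 0 ratios passed, and 8 tRFs had an unadjusted p under 0.05. Under it GluCTC was -0.053, GlyGCC -0.019, and the shares of Ile 0.091, Thr 0.032, Trp -0.15 and Tyr 0.25.

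Depth limits tRFs with few reads in CO F0 replicate 3, an exact test of 3 against 4 libraries cannot give a p under 0.0571, and edgeR and DESeq2 on the recovered reads were not run.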
